A study of Mus musculus with 6 samples.

Results

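The genes described here are 10 genes of the visual cycle, namely Rpe65, Lrat, Rdh5, Rdh10, Rdh11, Rdh12, Rlbp1, Dhrs3 and the opsins Rgr and Rrh. They were chosen by gene symbol, with earlier results of these data known. All 10 were measured, among 18193 genes with a probe set annotated to exactly 1 symbol. RNA came from the retinal pigment epithelium (RPE), the cell layer behind the photoreceptors, of BALB/c mice, an albino strain. The light-damaged group had 1 week of dark adaptation, then 1.5 h under white fluorescent light of 6000 lux, and RPE was taken 24 h after the light. The dark-adapted group had the same 1 week in the dark and no such exposure. Each group had 3 arrays, whose number limits the precision. Whether an array stands for 1 animal or a pool, and the animals' age and sex, are not in the labels. The p-values therefore describe the variation among these arrays, part of which may be technical.

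In vertebrate vision, light turns the 11-cis-retinal of visual pigment into the all-trans form, which must be converted back before the pigment can absorb light again. Retinal dehydrogenases of photoreceptors, among them RDH12 and the product of Dhrs3, reduce all-trans-retinal to retinol. In the RPE, LRAT joins retinol to a fatty acid, RPE65 turns the ester into 11-cis-retinol, and RDH5, with RDH10 and RDH11 able to act in part in its place, oxidises that to 11-cis-retinal. CRALBP, the product of Rlbp1, holds the 11-cis retinoids. RGR and peropsin, the products of Rgr and Rrh, are opsins of the RPE that bind retinal. Rlbp1, Rgr and Rdh10 are also transcribed in Müller glia, the radial glia of the retina.

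The sequence upstream of these genes is shown because their transcripts were lower together. Upstream sequence from RefSeq (GRCm38.p6) was used for 9 of the 10 genes, all but Rdh10, and the 250 bases before the start are printed 5′ to 3′ on the gene's strand for the 6 genes on which the text turns most. Capitals mark TAATCC, the core recognised by the homeodomain factors OTX2 and CRX, and CATGTG, an E-box of the kind bound by MITF, on either strand. OTX2 and MITF are factors of RPE identity.
Rpe65, chr3:159598931-159599180, plus strand: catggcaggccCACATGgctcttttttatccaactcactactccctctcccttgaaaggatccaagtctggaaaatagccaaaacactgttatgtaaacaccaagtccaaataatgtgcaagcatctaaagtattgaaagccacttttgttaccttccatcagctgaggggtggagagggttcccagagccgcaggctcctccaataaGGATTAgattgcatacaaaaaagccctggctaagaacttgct
Rlbp1, chr7:79387028-79387277, minus strand: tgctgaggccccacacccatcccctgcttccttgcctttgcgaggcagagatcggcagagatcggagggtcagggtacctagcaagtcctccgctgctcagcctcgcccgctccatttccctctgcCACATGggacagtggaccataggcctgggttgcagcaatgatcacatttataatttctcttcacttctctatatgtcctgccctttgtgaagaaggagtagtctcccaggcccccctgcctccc
Rgr, chr14:37049015-37049264, minus strand: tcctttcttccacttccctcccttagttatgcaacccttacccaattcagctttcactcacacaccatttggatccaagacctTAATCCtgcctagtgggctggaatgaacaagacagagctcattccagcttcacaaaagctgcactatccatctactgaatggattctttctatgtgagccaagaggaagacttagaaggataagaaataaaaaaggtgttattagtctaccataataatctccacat
Rrh, chr3:129822506-129822755, minus strand: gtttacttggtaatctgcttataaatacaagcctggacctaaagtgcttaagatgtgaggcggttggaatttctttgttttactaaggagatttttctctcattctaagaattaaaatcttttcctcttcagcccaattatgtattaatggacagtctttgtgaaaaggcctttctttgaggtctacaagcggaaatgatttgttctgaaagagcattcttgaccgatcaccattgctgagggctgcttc
Lrat, chr3:82903975-82904224, minus strand: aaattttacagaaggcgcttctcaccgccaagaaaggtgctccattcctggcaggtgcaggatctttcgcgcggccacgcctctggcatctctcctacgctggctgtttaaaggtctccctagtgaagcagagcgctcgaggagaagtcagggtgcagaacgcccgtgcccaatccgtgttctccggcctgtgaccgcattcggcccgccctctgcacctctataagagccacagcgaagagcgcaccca
Rdh12, chr12:79208663-79208912, plus strand: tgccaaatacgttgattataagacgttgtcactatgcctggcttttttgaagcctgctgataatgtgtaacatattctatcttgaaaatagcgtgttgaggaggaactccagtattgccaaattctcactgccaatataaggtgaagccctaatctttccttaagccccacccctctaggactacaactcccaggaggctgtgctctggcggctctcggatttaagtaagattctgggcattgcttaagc
Rpe65 held GGATTA, the reverse complement of TAATCC, from 42 to 37 bases before its start, and CACATG, the reverse complement of CATGTG, further upstream. Rgr held TAATCC and Rlbp1 held CACATG. A further E-box, the palindrome CACGTG, was also searched, and none of the 3 motifs lay in the windows of Rrh, Lrat and Rdh12, and the motifs did not overlap each other. One of the start sites of Rdh11 had CACGTG at 2 positions, and Rdh5 and Dhrs3 had no match. Over 32851 windows of this length from all genes, 6.25% held TAATCC, 12.3% CATGTG and 6.02% CACGTG, against 2, 2 and 1 of the 12 windows of the 9 genes here. These matches are letters in a window and were not tied to the measurements.

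All 10 transcripts were lower in light-damaged RPE in 3 of 3 pairs of arrays with the same replicate number, and 4 of them fell at an adjusted p under 0.05. Those 4 were Rrh (peropsin) at 1.77-fold, Rdh12 at 1.91-fold, Lrat at 1.61-fold and Rdh10 at 1.67-fold lower. Rpe65 itself was 1.52-fold lower and did not pass. Values are deposited log2 expression, differences are light-damaged minus dark-adapted ± standard error from limma with the replicate number as a block, and adjusted p-values are Benjamini-Hochberg over all 18193 genes. In that fit 1.92% of all genes fell (4.99% were called in either direction), and 4 of 10 is set beside that share. Because the 10 were chosen with earlier results of these data known, the share is a background and no test. All 10 had a difference below 0 with an unadjusted p under 0.05, beside 9.57% of all genes with such a p and 50.0% with a difference below 0. The 10 were bright genes, with 9 at or above the 90th percentile of mean level. In the limma fit of the 9097 genes at or above the median level, 288 fell and 1260 were lower at an unadjusted p under 0.05. Over all genes 20.7% were lower in 3 of 3 pairs, and 3.72% had groups that did not overlap and were lower in light-damaged RPE. The same separation held for 6 of the 10, Rrh, Rdh12, Rdh10, Rgr, Rdh5 and Dhrs3. The median difference of the 10 was -0.65, beside -0.0001 for all genes.

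These calls need the pairing of arrays. Without the block, limma called 0 of the 10, the smallest adjusted p being 0.242, and 4 of the 10 had an unadjusted p under 0.05 (1.98% of all genes were lower at that level). No gene of the whole table fell in that fit, so its background is 0.0% and the count carries no comparison. On the first principal component of all genes, replicate 1 of each group lay away from the other arrays (-68.73 in the light-damaged and -38.60 in the dark-adapted array, against 18.76 to 34.02 in the others). Their Gapdh 3′ minus 5′ control values, which grow with RNA degradation or short labelled products, were 2.48 in the light-damaged and 2.45 in the dark-adapted array, against 1.54 to 1.80 in the other arrays. Without both of them, the fit with the block called the same 4 genes, against 2.3% of all genes lower, and the fit without the block called Rdh12 and Rrh (1.19% of all genes). Weighting arrays by their fit called all 10, beside 4.27% of all genes, and leaving out replicate 2 of both groups called 6, beside 1.57%.

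**Figure D1:**
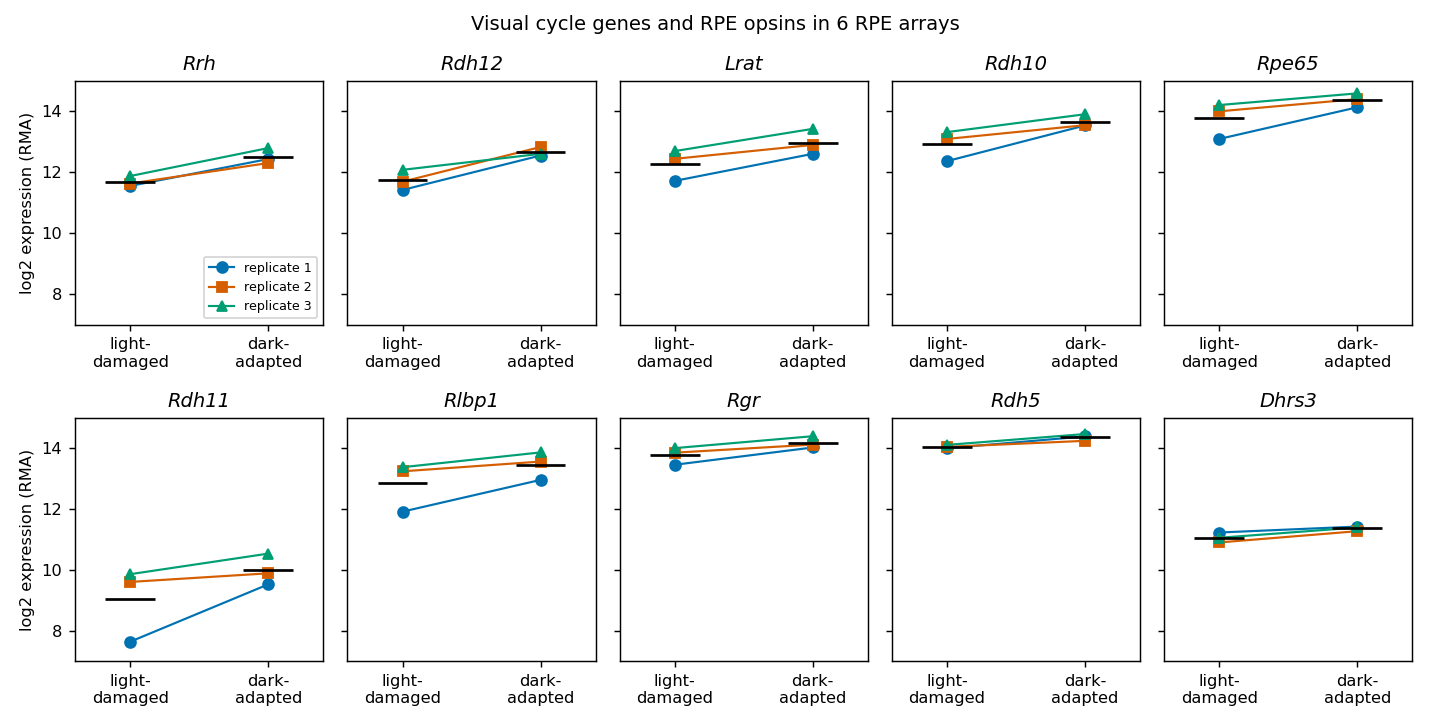
Log2 expression of each of the 10 genes in every array, light-damaged at the left and dark-adapted at the right of each panel. Lines join arrays of the same replicate number and black bars are group means (n = 3). Every line rises towards the dark-adapted side, and the steepest line is replicate 1 of Rdh11, at 7.65 in the light-damaged and 9.53 in the dark-adapted array.

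Of the steps that take retinol to the chromophore, esterification by LRAT comes first. Lrat read 11.72, 12.45 and 12.70 in light-damaged arrays 1, 2 and 3, against 12.61, 12.90 and 13.43 in dark-adapted arrays 1, 2 and 3. The groups overlapped between the highest light-damaged and the lowest dark-adapted array, while each pair went down. The difference was -0.69 ± 0.11 (limma adjusted p = 0.0225). A dimmer second probe set gave -0.81 ± 0.23 (adjusted p = 0.129 over all probe sets), with pair differences of -1.54, -0.15 and -0.75. When its 2 probe sets were averaged, Lrat had an adjusted p of 0.0598, and the call was lost. With light-damaged replicate 1 alone left out and no block, the difference was -0.41 and was not called.

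Rpe65, the isomerase on which the cycle in the RPE depends, was among the brightest transcripts. It read 13.10, 14.01 and 14.21 in light-damaged arrays, against 14.14, 14.41 and 14.59 in dark-adapted arrays. Light-damaged replicate 1 was the low value, and the groups overlapped. The difference was -0.61 ± 0.15 (95% interval -0.96 to -0.26, limma adjusted p = 0.0738). By pair it was -1.04, -0.40 and -0.38, and without the replicate 1 arrays it was -0.39 (1.31-fold lower, limma adjusted p = 0.0545 with the block). With light-damaged replicate 1 alone left out and no block, it was -0.27. The highest value of any probe set on these arrays was 14.82, and RMA values near the top of the scale can understate differences. The part of this in the Rpe65 difference was not tested.

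Next come the dehydrogenases. Rdh5, the main 11-cis-retinol dehydrogenase, read 14.00, 14.04 and 14.11 in light-damaged arrays, against 14.39, 14.24 and 14.46 in dark-adapted arrays. Its groups did not overlap and its arrays varied little, with means of 14.05 ± 0.06 in light-damaged and 14.36 ± 0.11 in dark-adapted RPE (SD, n = 3 each). At -0.31 ± 0.09 its difference was small and did not pass (limma adjusted p = 0.120). Rdh5 too lay near the top of the scale, and the part of this in its difference was not tested.

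Rdh10, whose enzyme oxidises retinol and serves retinoic acid synthesis in the embryo, read 12.37, 13.10 and 13.32 in light-damaged arrays, against 13.54, 13.55 and 13.91 in dark-adapted arrays. Every light-damaged array lay below every dark-adapted one. The difference was -0.74 ± 0.15 (limma adjusted p = 0.0442), and the second probe set gave -0.57 ± 0.10 (adjusted p = 0.0355 over all probe sets). Rdh10 was close to the threshold, and a pseudocount of 16 took its adjusted p to 0.0563. Without the block and without light-damaged replicate 1 its difference was -0.46, which was not called.

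Rdh11 varied most. It read 7.65, 9.61 and 9.86 in light-damaged arrays, against 9.53, 9.89 and 10.54 in dark-adapted arrays. Light-damaged replicate 1 stood about 2 units below its companions, whereas the other 5 arrays spanned 9.53 to 10.54. The difference of -0.95 ± 0.28 was the largest in size among the 10 and did not pass (limma adjusted p = 0.128). Pair differences were -1.88, -0.28 and -0.68, and without the replicate 1 arrays the mean was -0.48. It was -0.25 when light-damaged replicate 1 alone was left out, without the block. The second probe set of Rdh11, which read 7.77 in light-damaged replicate 1 and 8.38 in dark-adapted replicate 1, gave -0.42 ± 0.10.

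Rdh12, which reduces all-trans-retinal in photoreceptor inner segments, read 11.42, 11.70 and 12.08 in light-damaged arrays, against 12.55, 12.83 and 12.61 in dark-adapted arrays. The groups did not overlap. The difference was -0.93 ± 0.14 (limma adjusted p = 0.0190), and the second probe set gave -0.88 ± 0.13 (adjusted p = 0.0189 over all probe sets). Its pair differences of -1.13, -1.14 and -0.53 were not largest in pair 1. Dhrs3, retinal short-chain dehydrogenase 1, read 11.23, 10.91 and 11.06 in light-damaged arrays, against 11.43, 11.28 and 11.40 in dark-adapted arrays. The groups did not overlap, the difference was -0.30 ± 0.09 and it did not pass (limma adjusted p = 0.131). Here light-damaged replicate 1 was the highest of its group, the reverse of the other 9 genes.

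**Figure D2:**
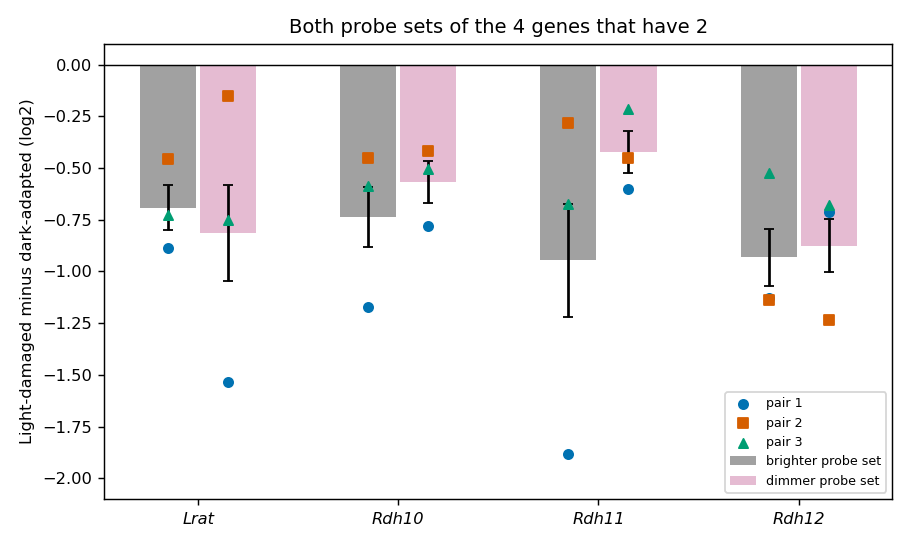
Light-damaged minus dark-adapted log2 differences for both probe sets of Lrat, Rdh10, Rdh11 and Rdh12, with bars for the limma estimate, whiskers for its standard error and points for the 3 pairs. All bars lie below 0, and the 2 probe sets of Rdh11 differ most, at -0.95 and -0.42.

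The binding protein gene Rlbp1 read 11.92, 13.24 and 13.38 in light-damaged arrays, against 12.96, 13.56 and 13.86 in dark-adapted arrays. Replicate 1 was the lowest array of both groups, and the groups overlapped. The difference was -0.62 ± 0.15 (limma adjusted p = 0.0730), and it was -0.40 without the replicate 1 arrays. Leaving out light-damaged replicate 1 alone, in a fit without the block, gave -0.15.

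Of the 2 opsins, Rrh had the smallest p of the 10 genes. It read 11.56, 11.64 and 11.88 in light-damaged arrays, against 12.44, 12.31 and 12.80 in dark-adapted arrays. The 3 pairs gave -0.88, -0.67 and -0.92, with no overlap between groups. The difference was -0.82 ± 0.09 (limma adjusted p = 0.0082) and hardly moved without the replicate 1 arrays, at -0.80. Rgr, whose product is a photoisomerase opsin, read 13.46, 13.85 and 14.00 in light-damaged arrays, against 14.02, 14.12 and 14.39 in dark-adapted arrays. Its groups were separated by a narrow gap, and the difference of -0.41 ± 0.10 did not pass (limma adjusted p = 0.0723). Without replicate 3 of both groups the adjusted p of Rrh was 0.0638, and Rdh12 was the 1 gene of the 10 called (0.374% of all genes fell in that fit).

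Across the 10 genes the size of the difference varied with the pair. The median was -0.96, -0.39 and -0.51 in pairs 1, 2 and 3, beside -0.0004, -0.02 and 0.02 over all genes. In pair 1, 7 of the 10 had their largest difference, Rdh12 and Dhrs3 had it in pair 2 and Rrh in pair 3. Light-damaged replicate 1 was the lowest light-damaged array for 9 of the 10, and dark-adapted replicate 1 the lowest dark-adapted array for 7. The Gapdh 3′ minus 5′ values, light-damaged then dark-adapted, were 2.48 and 2.45 in pair 1, 1.80 and 1.54 in pair 2, and 1.59 and 1.60 in pair 3. On the first principal component the replicate 1 arrays lay at -68.73 and -38.60. The part of RNA quality in the size of pair 1 was not tested.

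**Figure D3:**
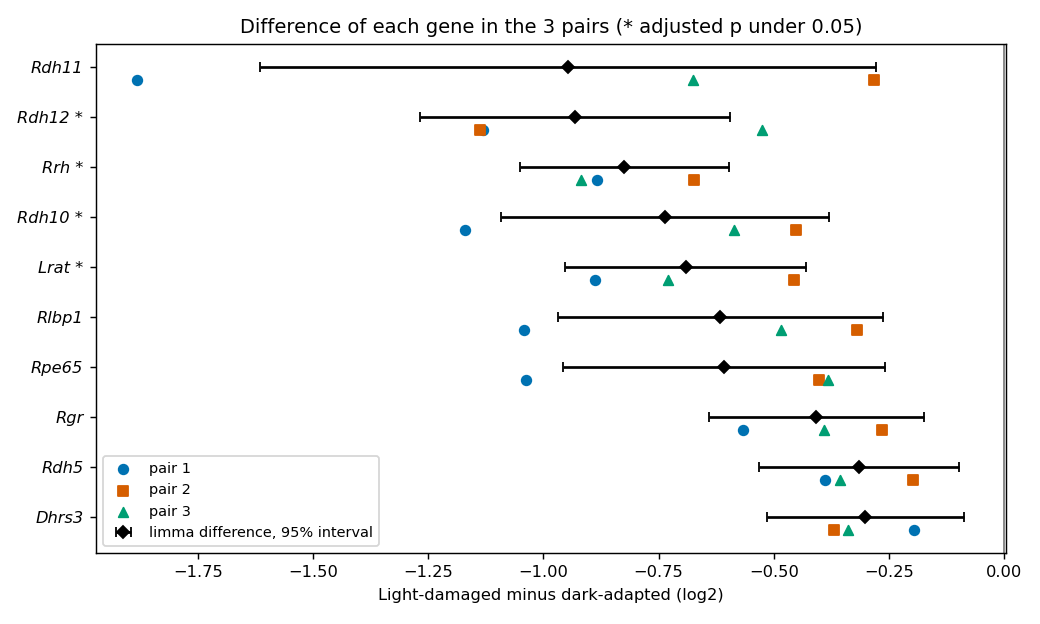
Light-damaged minus dark-adapted log2 difference of each gene, with diamonds and bars for the limma estimate and its 95% interval and coloured points for the 3 pairs. All points lie below 0, and pair 1 of Rdh11 lies farthest, at -1.88.

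Likeness was measured as the root mean square difference between values centred on each gene's mean over the 6 arrays. Candidates were 9089 other genes, with an SD over the 6 arrays at least that of the median gene. No such filter was put on the 10. By this measure the candidates closest to Rpe65 were Stx3, Me1, Rtn3, Fbxl12 and Sesn3, at 0.055 to 0.075 log2 units. The nearest of the 10 genes to Rpe65 were Rdh10 at 0.115 and Lrat at 0.136, and Dhrs3 was farthest at 0.473. Closest to Rrh were Sult1a1, Nr2e1, Car14, Lrp8 and Slc2a12, at 0.066 to 0.086, and the nearest of the 10 was Rdh10 at 0.222. The closest candidates were picked from 9089 genes and the nearest members from the 10 alone. That the candidates were closer therefore carries no comparison. With 6 arrays of which replicate 1 stood apart, this measure mostly reads the same replicate and group differences.

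Other genes of retinoid handling were followed as a list of 14, of which 10 were measured here. Abca4, the transporter that clears retinal from photoreceptor discs, fell by 0.56 (-0.56 ± 0.10, limma adjusted p = 0.0346), and the other 9 did not pass. Abca4 read 12.67, 12.59 and 12.91 in light-damaged arrays, against 13.19, 13.36 and 13.30 in dark-adapted arrays, without overlap. Stra6, the retinol uptake receptor of the RPE, had a difference of -0.53 (adjusted p = 0.0810), Rdh14 of -0.54 (adjusted p = 0.125) and Retsat of -0.38 (adjusted p = 0.118). The difference was -0.28 for Degs1, -0.11 for Rbp3, the retinoid carrier of the space between photoreceptors and RPE, -0.10 for Bco2, -0.06 for Dgat1, 0.03 for Rdh13 and 0.05 for Bco1. The median of this list was -0.20, with 8 of 10 below 0, beside 50.0% of all genes. Among the 4 other opsins measured, the cone opsin Opn1sw fell by 1.72 (-1.72 ± 0.15, limma adjusted p = 0.0041). Opn1mw had a difference of -0.57 (adjusted p = 0.0869), Opn3 of -0.12 and Opn4 of -0.02, and none of these passed.

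The tissue label was set against marker lists. The brightest 2 of the RPE markers were Ttr, the thyroxine and retinol-binding protein carrier, at 14.65 to 14.72 in light-damaged and 14.70 to 14.77 in dark-adapted arrays, and Dct, a melanin synthesis enzyme, at 13.19 to 14.02 in light-damaged and 13.86 to 14.13 in dark-adapted arrays. Best1 and Cldn19, also RPE markers, averaged 8.04 and 6.15 over all arrays, below the median gene level of 8.37. The brightest 2 of the photoreceptor markers were Gnat1, rod transducin, at 14.01 to 14.51 in light-damaged and 14.31 to 14.66 in dark-adapted arrays, and Sag, rod arrestin, at 14.25 to 14.49 in light-damaged and 14.38 to 14.56 in dark-adapted arrays. Prph2, a protein of photoreceptor discs, averaged 7.07, below the median gene level. These rod transcripts were thus measured in the arrays of both groups. In RNA of a whole tissue sample, fewer cells of a type and less RNA per cell cannot be told apart.

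Of 19 RPE identity genes, which exclude the 10, all were below 0 and 4 fell (limma adjusted p), with a median of -0.34. Over all genes 50.0% were below 0 and 1.92% fell. The 4 were the lactate transporter gene Slc16a8 (-0.74), the potassium channel gene Kcnj13 (-0.56), Pmel (-0.52) and Oca2 (-0.82), the last 2 being genes of melanosomes. The mean log2 value of the list ranged from 11.31 to 11.42 in light-damaged and from 11.58 to 11.87 in dark-adapted arrays. Of 19 photoreceptor genes, 8 fell, beside the same 1.92%. Among them were the cone genes Arr3 (-0.92) and Gnat2 (-0.89) and the rod factor Nrl (-0.67). Gnb3, a transducin subunit of cones and bipolar cells, rose (1.11). The 2 brightest did not pass, at -0.10 for Sag and -0.25 for Gnat1. Without the replicate 1 arrays 5 of the 19 fell, with the block, beside 2.3% of all genes. The median was -0.48, and the list mean ranged from 11.62 to 12.39 in light-damaged and from 12.08 to 12.68 in dark-adapted arrays.

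Of 9 Müller glia genes none passed in limma with the block, and 5 had an unadjusted p under 0.05 in either direction. Over all genes 3465 of 18193 had such a p. Glul, Lhx2, Abca8a and Aqp4 were lower at that level and Sox2 was higher. Without the replicate 1 arrays Sox2 rose (0.90) in the fit with the block, beside 4.55% of all genes higher in that fit. Glul, glutamine synthetase, had a difference of -0.22, Dkk3 of -0.29, Lhx2 of -0.38, Abca8a of -0.36, Aqp4 of -0.29 and Sox2 of 0.60. In the whole list 6 genes were below 0 and 3 above, with a median of -0.22. Slc1a3 (0.25) and Kcnj10 (0.21) were above 0 with Sox2. The mean of this list ranged from 9.59 to 10.44 in light-damaged and from 9.83 to 10.32 in dark-adapted arrays. Macrophage and microglia markers moved the other way: 15 of 18 rose, beside 3.07% of all genes, none of the 18 fell, and the list median was 0.93. Cd68, a lysosomal glycoprotein of phagocytes, rose by 2.11, Lyz2 by 1.13, Laptm5 by 0.99 and C1qc by 0.93, while Csf1r had a difference of -0.15 and Ctss of 0.18. The list mean ranged from 10.38 to 10.68 in light-damaged and from 9.53 to 9.84 in dark-adapted arrays. Of 14 genes of endothelium and choroid stroma, Col3a1 (0.82), Pdgfra (0.73) and Vwf (0.68) rose, beside the same 3.07%. Without the replicate 1 arrays 6 of the 14 rose, beside the same 4.55%. Cdh5 (0.27), Dcn (0.28) and Col1a2 (0.23) did not pass. Of the 14, 11 were above 0 and 3 below, namely Pecam1, Kdr and Tek, and the list median was 0.24. The part of these cell types in the values of the 10 genes was not tested.

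**Figure D4:**
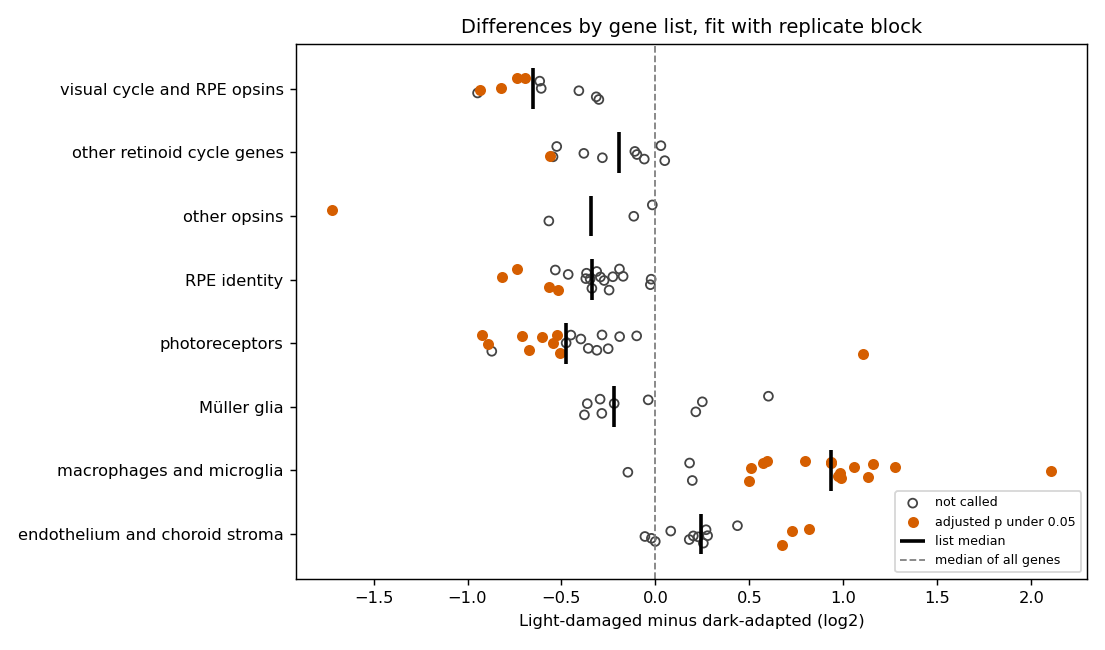
Light-damaged minus dark-adapted log2 difference of every measured gene in 8 lists, filled where the adjusted p was under 0.05, with the list median as a black bar and the median of all genes as a dashed line. The 10 visual cycle genes have a median of -0.65, and the macrophage list lies on the other side at 0.93.

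Since both the RPE and the photoreceptor list were lower, the 10 genes were also expressed relative to the mean of each list. The mean differences of the RPE identity list were -0.46, -0.15 and -0.46 in pairs 1, 2 and 3. Relative to it, 8 of the 10 were below 0 on average and 6 in 3 of 3 pairs, with a median of -0.29. The shares of all genes below 0 relative to either list were not counted. Rrh was -0.42, -0.52 and -0.45 relative to the list, the narrowest spread of the 10. Lrat was -0.43, -0.31 and -0.27, and Rdh12 was -0.67, -0.99 and -0.06. Rlbp1 was -0.58, -0.17 and -0.02, so that Rlbp1 and Rdh12 lay close to the list in pair 3. Rpe65 was -0.58, -0.25 and 0.08, so that it was lower than the list in 2 of 3 pairs, and Rgr, Rdh5 and Dhrs3 were within 0.06 of the list on average.

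Relative to the photoreceptor list, whose mean differences were -0.47, -0.58 and -0.22, only Rdh12 and Rrh of the 10 were lower in 3 of 3 pairs. Rdh12 was -0.66, -0.56 and -0.31 relative to it, and Rrh was -0.42, -0.10 and -0.70. The median of the 10 was -0.23 on this scale. In the limma fits on arrays centred on either list, Rrh, Rdh12 and Rdh11 were called lower, Rdh11 mostly through pair 1. The share of all genes called lower was 0.819% for the RPE list and 0.753% for the photoreceptor list. Centring raised the median of all genes to 0.36 and 0.42 and called 7702 and 12345 genes, so adjusted p-values there say little. With the photoreceptor mean as a covariate and no block, Rdh12 and Rrh were the 2 of the 10 called, beside 2.72%.

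**Figure D5:**
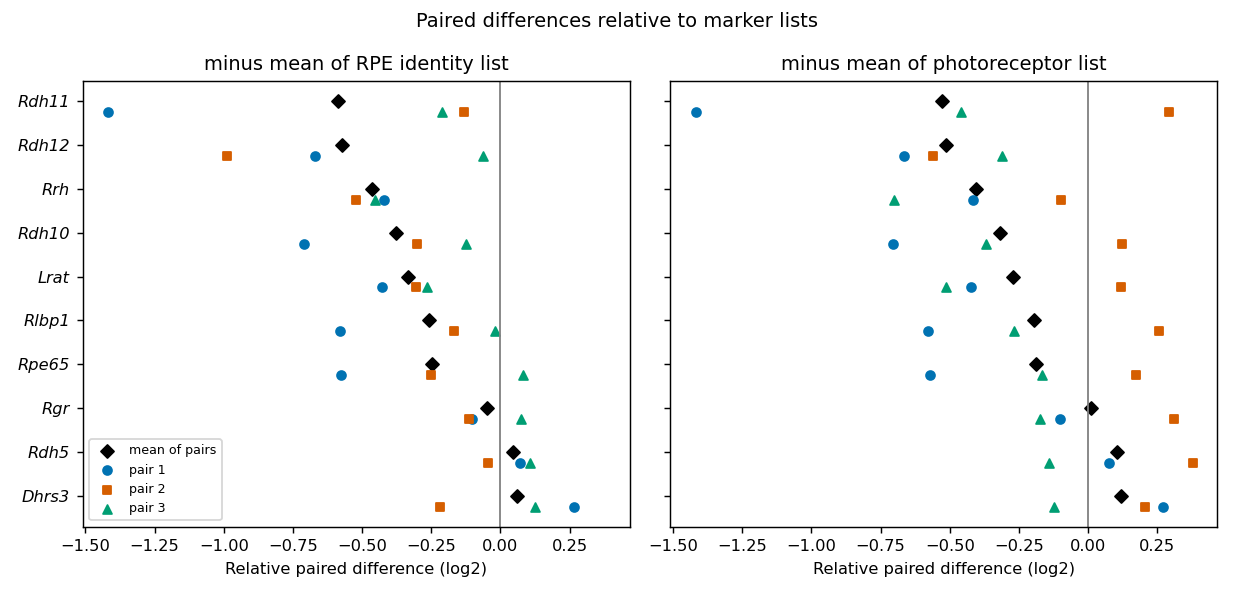
Paired log2 differences of the 10 genes after subtracting the mean paired difference of the RPE identity list (left) or the photoreceptor list (right), with diamonds for the mean and coloured points for the 3 pairs. Rrh and Rdh12 have all points below 0 in both panels.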

How the data were processed

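Per the labels, RPE total RNA was hybridised to 6 Affymetrix mouse arrays. The deposited values are log2 expression per probe set, made by the authors with RMA per the submitters' processing notes, with no version and no detection calls in the sources used here. RMA compresses differences near background and near saturation.

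Of 45101 probe sets, 34945 had exactly 1 symbol in the platform annotation. The probe set with the highest mean over all 6 arrays stood for each gene, giving 18193 genes. Differences were fitted in R 4.3.3 by lmFit and eBayes of limma 3.58.1, with the replicate number as a block, 2 residual degrees of freedom and Benjamini-Hochberg adjustment over all genes. Calls were at an adjusted p under 0.05. The labels number replicates alike in both groups without saying what a number shares. After subtraction of group means, arrays with the same number correlated across genes at 0.89, 0.62 and 0.86, and were treated as pairs. Pairs 2 and 3 are less sure, since light-damaged replicate 3 correlated at 0.65 with dark-adapted replicate 2, and light-damaged replicate 2 at 0.61 with dark-adapted replicate 3. The difference between replicates 3 and 2, which leaves out replicate 1, correlated at 0.33 between the groups.

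On simulated arrays with 18193 genes, the fit with the block called 67 of 100 genes changed by 1 log2 unit and 92 of 100 changed by 2. Simulated arrays with the same replicate number shared their replicate shift exactly. The recovery thus takes the pairing as given and says nothing about whether the pairs are right. The differences of the 10 genes, -0.95 to -0.30, were smaller in size than 1 log2 unit, and recovery at such sizes was not tested. The 10 genes and all lists were chosen with earlier results of these data known, and a list is described by counts and medians only. The named genes were all 10 members, all measured retinoid and opsin genes, and of each cell type list the 4 smallest p and the 2 brightest. Alternatives covered the block, left-out arrays, a pseudocount of 16, normalization, removal of dim genes, probe set choice, limma settings, array weights and centring on marker lists. Some list members were not analysed here.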

Additional observations from a re-analysis of the deposited data

How the results depend on the processing

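All 10 differences were below 0 under every setting run except centring on a marker list and the photoreceptor covariate. With the block, 4 of the 10 and 908 of all genes were called, and without it 0 and 9. Leaving out 1 replicate of both groups gave 1 to 6 of the 10 and 228 to 1245 genes, the lowest both without replicate 3 and the 6 without replicate 2, where Rdh11 and Rlbp1 were added. Without the block, leaving out 1 array gave 0 of the 10 and 3 to 12 genes, with a median of -0.89 to -0.34, the smallest without light-damaged replicate 1. Without the block and both replicate 1 arrays (added after seeing the data), 2 of the 10 were called. Array weights called 10 of the 10 and 1875 genes, 4.27% of all genes being lower.

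Centring on the RPE identity list raised the median of all genes to 0.36 and called 7702 genes, nearly all higher, so that adjusted p-values there say little. The median of the 10 was -0.29 and 3 were called. Rdh5 (0.044) and Dhrs3 (0.058) changed sign. Centring on the photoreceptor list, chosen after seeing the data, raised the median of all genes to 0.42 and called 12345 genes. Adjusted p-values there say little too. The median of the 10 was -0.23, 3 of the 10 were called, and Rdh5 (0.104), Rgr (0.012) and Dhrs3 (0.118) changed in sign. With the photoreceptor mean as a covariate and no block, also chosen afterwards, 1939 genes and 2 of the 10 were called, the median was -0.26 and Rlbp1 was 0.092. The cause of these changes was not tested. Quantile normalization, median centring, the filter, trend and robust settings and adjustment over all probe sets left the same number of calls, 4, among the 10.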
